A study of Mus musculus with 12 samples.

Results

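The genes described here handle cisplatin (Cis) and metal ions in the cell. They are 10 genes of platinum and copper uptake, copper delivery, metal binding, export and glutathione conjugation, namely Slc31a1, Slc31a2, Atox1, Atp7a, Atp7b, Mt1, Mt2, Abcc1, Abcc5 and Gstp1. They were taken by symbol from the 15803 genes with a read in at least 1 of the 12 libraries. All 10 were present in the data.

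The libraries came from KPC cells, a mouse pancreatic ductal adenocarcinoma (PDAC) line made from genetically engineered mice with Trp53 LSL-R172H and Pdx1-Cre, in which Cre driven by the pancreatic Pdx1 promoter switches on the mutant allele. Every group is the same line and carries the same alleles, so the cells of a single line stand for the tumour. The groups were control cells, cells given 20 μM Cis for 6 h and cells given 20 μM Cis for 21 h. The controls are labelled as having no treatment and are called PBS here after the study's methods, and their time in PBS is not labelled. Each group had 2 ribosome profiling libraries, which sequence the footprints that ribosomes protect on mRNA, and 2 RNA-seq libraries of the same lysates. The same PBS libraries served as controls for both times. Nothing in the labels says that replicates were separate cultures, so the p-values measure the spread between these libraries, which may be technical.

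Cis is a platinum compound that binds DNA. Platinum drugs share several carriers with copper. Copper enters through the plasma membrane transporter CTR1, passes to the small chaperone ATOX1 and is handed to the copper-pumping ATPases ATP7A and ATP7B, which load the secretory pathway and send excess copper out. Metallothioneins are small cysteine-rich proteins that hold zinc, copper and also platinum, and their genes are switched on by the zinc-sensing factor MTF1 through short metal response elements. Glutathione also binds platinum, and conjugates leave the cell through ATP-driven pumps of the ABCC family.

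Levels are given as RPKM, reads per kilobase of coding sequence (footprints) or of transcript (RNA-seq) scaled to the total reads of the library. A rise or fall is therefore relative to the other genes, and a change in total translation or total RNA does not show. The study reports, from a puromycin assay, that Cis inhibited protein synthesis in these cells. Footprint libraries held 3375480 to 5204127 reads. RNA-seq libraries held 1985344 to 2901692, of which 51.8% to 56.6% fell on Lars2, Tmem38b and Mettl26 alone, and without these 3 genes 862476 to 1341584 reads. The label was checked against epithelial markers. Krt8 (3214 to 4949 RPKM in footprints), Krt18 and Krt19 (1608 to 3082) were high and Cdh1 was at 88.3 to 147. Krt7 was at 9.19 to 21.9, Sox9 at 11.1 to 30.9 and Epcam at 1.83 or below. The mesenchymal gene Vim was at 2867 to 3862. Acta2 was at 15.5 or below, and Col1a1, Col1a2 and Pdgfrb were at 1.71 or below. The mesenchymal sum given below is thus nearly all Vim. Markers of leukocytes summed to at most 5.40 RPKM in any footprint library and those of endothelium to at most 0.666, and Cd3e had no read. The 6 acinar and endocrine pancreas markers summed to 1.69 and 3.23 RPKM in PBS footprints and to 6.10 and 6.12 at 21 h. Of these, Cela1 was at 1.69 to 6.12 RPKM in footprints on at most 18 reads, Gcg had at most 3 reads in RNA, and Cpa1, Prss1, Ins1 and Ins2 had no read. The 7 epithelial markers together summed to 9113 and 9794 RPKM in PBS footprints and to 6728 and 6861 at 21 h, and the 5 mesenchymal markers to 3619 and 3625 and then to 2874 and 2939. In RNA the epithelial markers summed to 1471 and 1527 RPKM in PBS and to 1322 and 1368 at 21 h. The mesenchymal markers summed to 622 and 678 in RNA in PBS and to 476 and 481 at 21 h. These sums were lower at 21 h in both assays, and their part in the falls described below was not tested. In bulk lysates, fewer cells that use a gene and less RNA per cell cannot be told apart.

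Sequence of the 2 metallothionein promoters is shown because these neighbouring genes fell together in RNA at 21 h. In RefSeq no gene lies between Mt1 and Mt2, and none between Slc31a1 and Slc31a2. Windows run from 250 bases before to 50 bases after the RefSeq gene start on GRCm38.p6, and capitals mark the core letters of the metal response element, TGCACNC or TGCGCNC, found on either strand. Matches that overlap are counted apart, and none overlapped in the windows shown. The Mt1 window is chr8:94178839-94179138 on the plus strand and the Mt2 window is chr8:94172368-94172667 on the plus strand.

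Mt1: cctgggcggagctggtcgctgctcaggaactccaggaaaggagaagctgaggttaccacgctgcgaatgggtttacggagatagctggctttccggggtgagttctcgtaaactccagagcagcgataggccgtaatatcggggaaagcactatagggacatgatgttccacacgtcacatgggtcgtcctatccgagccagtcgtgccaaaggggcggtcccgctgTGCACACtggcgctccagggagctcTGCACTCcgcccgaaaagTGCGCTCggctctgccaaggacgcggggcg

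Mt2: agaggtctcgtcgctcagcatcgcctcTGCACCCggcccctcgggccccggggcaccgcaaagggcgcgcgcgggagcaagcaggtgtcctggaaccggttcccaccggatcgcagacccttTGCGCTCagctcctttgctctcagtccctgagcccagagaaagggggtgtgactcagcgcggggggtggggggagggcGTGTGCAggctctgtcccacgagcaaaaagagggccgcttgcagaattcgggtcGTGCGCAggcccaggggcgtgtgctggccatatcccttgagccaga

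The Mt1 window held 3 matches and the Mt2 window 4. Counted from the RefSeq start, with a minus sign for bases before it, the Mt1 matches begin at -23, 2 and 20. Those of Mt2 begin at -223, -128, -50 and 4. Whether these cells use the RefSeq starts was not tested. Among 32851 RefSeq promoter windows of the same length, 1.97% held at least 3 matches and 0.517% at least 4. A window was given for 9 of the 10 genes. Atp7a and Abcc5 had 2 matches each, Slc31a2 and Atp7b had 1 each, and Slc31a1, Atox1 and Gstp1 had 0, beside 25.7% of all windows with at least 1 and 7.11% with at least 2. A match describes letters only. Abcc1 is named only.

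In PBS, the metal-binding proteins and the glutathione transferase were read by ribosomes far more than the transporters. Mean footprint levels per coding length fell in the order Mt1 (1258 ± 62.1 RPKM, SD, n = 2), Mt2 (632 ± 82.2), Atox1 (468 ± 56.1), Gstp1 (379 ± 10.1), Abcc1 (35.7 ± 0.128), Slc31a1 (28.5 ± 2.66), Abcc5 (14.2 ± 0.277), Atp7b (10.5 ± 0.619), Atp7a (5.93 ± 0.974) and Slc31a2 (3.49 ± 1.40). No pair of neighbours in this order overlapped in its 2 libraries. RNA levels per transcript length had nearly the same order, with Gstp1 (91.3 ± 4.48) above Atox1 (36.9 ± 12.6), and there Slc31a1 overlapped with Abcc5 and Atp7b with Atp7a. The coding window used for Mt1 is 396 bases long and that for Mt2 is 228, so the gap in footprint level between these genes also carries that difference in length. Whether these deposited transcripts are the main ones of each gene is not given in the sources used here, so their RPKM are best compared between libraries.

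**Figure D1:**
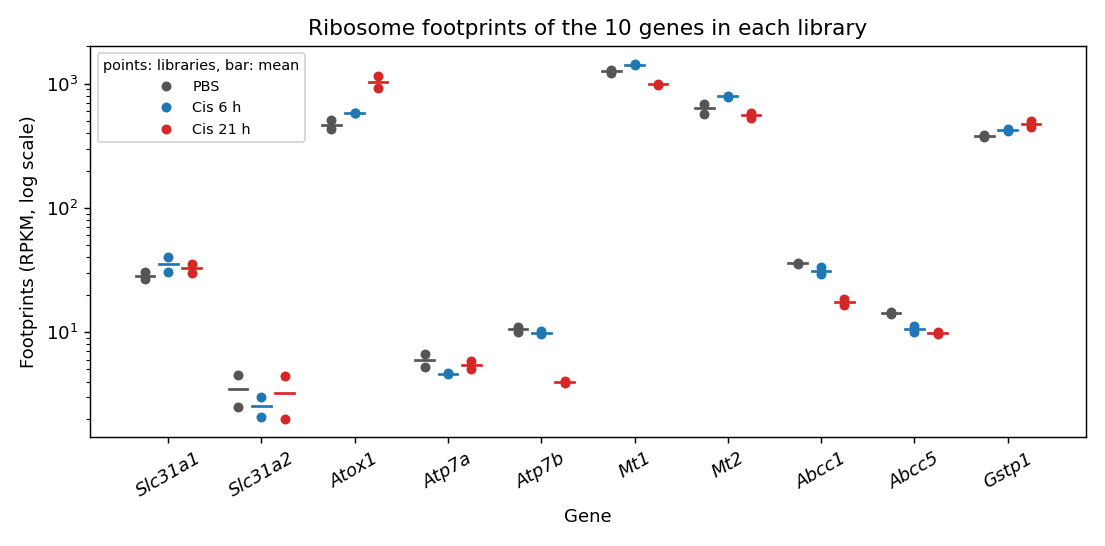
Footprint level of each of the 10 genes in RPKM (log axis), with a point for each library and a bar at the group mean, n = 2, for PBS (grey), 6 h (blue) and 21 h of Cis (red). Atox1 lies higher at 21 h than in either other group, Atp7b and Abcc1 lie lower, and the 3 groups of Slc31a2 overlap.

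**Figure D2:**
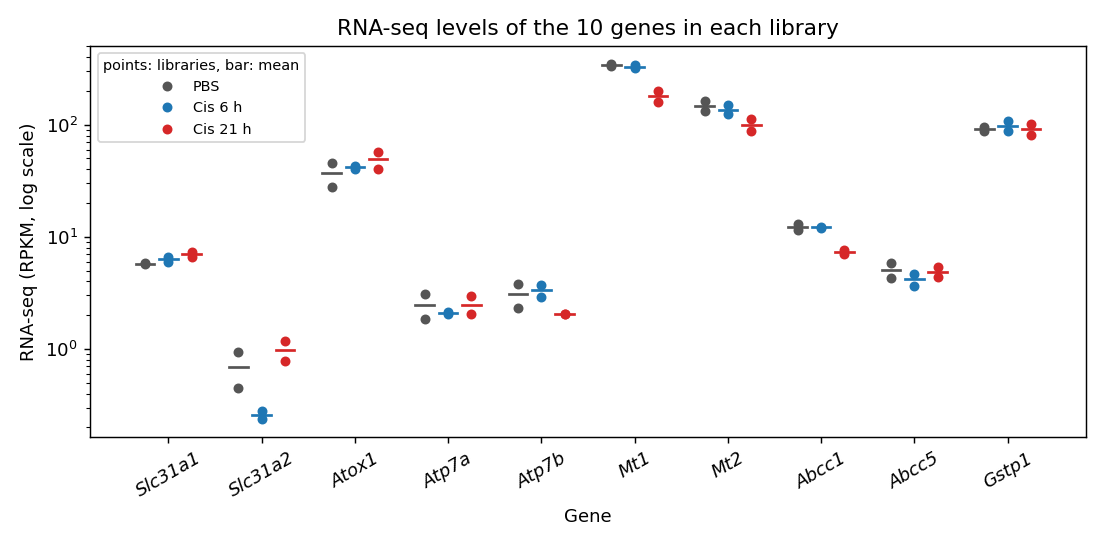
RNA-seq level of the same genes in RPKM (log axis), drawn in the same way. Mt1, Mt2 and Abcc1 lie lower at 21 h than in PBS or at 6 h, and the groups of Atox1 and Gstp1 overlap.

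Of the 10 genes, 6 changed in footprints at 21 h against PBS. Atox1 and Gstp1 rose, and Atp7b, Mt1, Abcc1 and Abcc5 fell (limma with Benjamini-Hochberg adjustment over all genes tested, adjusted p under 0.05, two-sided). Among all 10383 genes tested, 39.1% were called in this comparison, 18.9% as higher and 20.2% as lower. The median change of the 10 genes was -0.19 on the log2(RPKM + 0.5) scale, and that of all genes 0.01. In RNA at 21 h, 3 of the 9 genes that passed the filter changed, all downwards (Mt1, Mt2 and Abcc1), where 23.8% of all 9443 genes were called and 12.2% were lower. The median was -0.13 for the 9 genes and 0.02 for all genes. Slc31a2 was under the filter in RNA, a mean scaled level of 1 RPKM.

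At 6 h none of the 10 genes passed the test in footprints, where 2.04% of all genes were called. Unadjusted, 3 of the 10 (Atox1, Mt2 and Abcc5) and 2217 of all genes (21.4%) had a limma p under 0.05, and limma's voom on the reads recovered from the RPKM values called 2 (Mt2 and Abcc5) and 1276 of all genes, against 212 in the fit used here. In RNA at 6 h, limma called 0 of the 9 genes and 0% of all genes, with 0 of the 9 and 1086 of all genes at an unadjusted p under 0.05, and voom called 0 of the 9 and 229 of all.

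**Figure D3:**
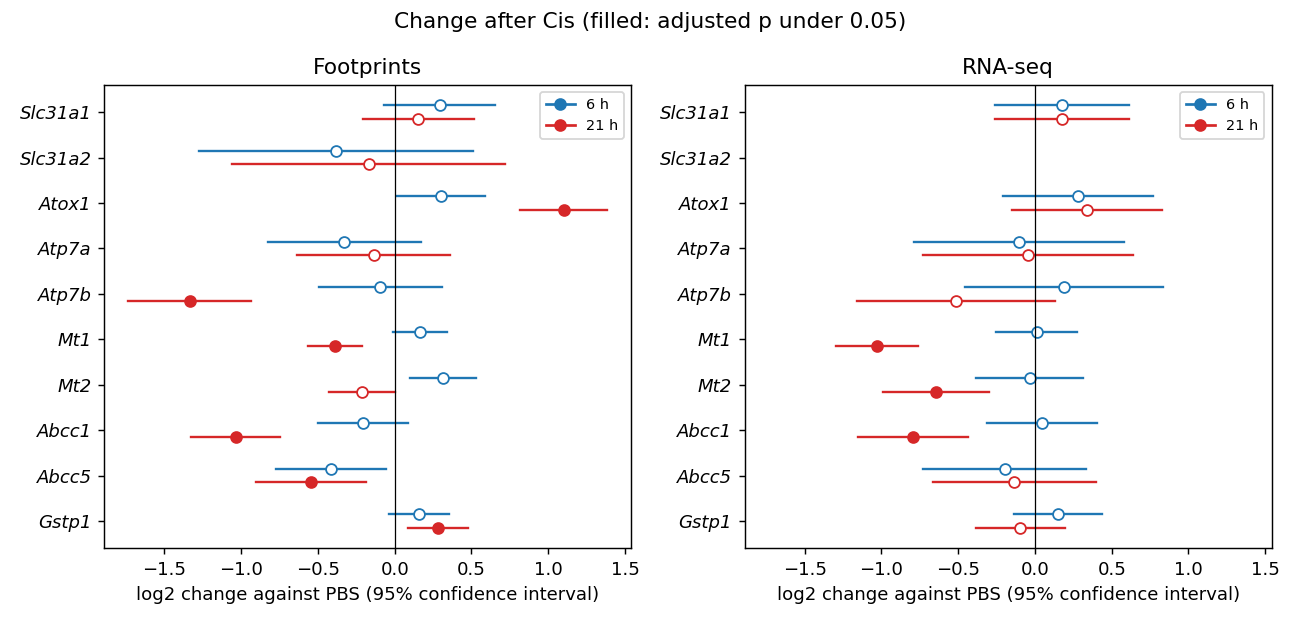
Change of each gene against PBS in footprints (left) and RNA-seq (right) on the log2(RPKM + 0.5) scale at 6 h (blue) and 21 h (red), with bars for the 95% confidence interval of the limma fit and filled points for an adjusted p under 0.05. Filled points appear only at 21 h, 6 in footprints and 3 in RNA-seq.

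The copper importers Slc31a1 and Slc31a2 did not pass the test in any comparison in which they were tested. Slc31a1 encodes CTR1, the main copper importer of the plasma membrane, through which Cis has also been described to enter cells. Its footprint level was 30.4 and 26.6 RPKM in PBS, 40.6 and 30.7 at 6 h, and 35.1 and 30.2 at 21 h. Both 6 h libraries lay above both PBS libraries, and the 21 h libraries overlapped with PBS. The change was 0.29 (SE 0.16, 95% interval -0.07 to 0.65) at 6 h and 0.15 (SE 0.16, -0.21 to 0.52) at 21 h, with limma adjusted p of 0.328 and 0.469. In RNA it was at 5.79 and 5.75 RPKM in PBS, 6.64 and 5.94 at 6 h, and 7.39 and 6.56 at 21 h, all Cis libraries higher than PBS. The RNA change was 0.18 (SE 0.20) at 6 h and 0.17 (SE 0.20, -0.26 to 0.61) at 21 h (limma adjusted p = 0.767 and 0.559). These rest on 61 to 112 footprint reads and 49 to 64 RNA reads a library.

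Slc31a2 encodes CTR2, a relative of CTR1 found mostly on internal membranes. It was read by 10 and 5 footprints in PBS, 6 and 3 at 6 h, and 7 and 3 at 21 h, which gave 4.48 and 2.50, 2.98 and 2.07, and 4.43 and 2.00 RPKM. All groups overlapped. The interval of its change at 21 h ran from -1.06 to 0.72 (limma adjusted p = 0.759), so changes of that size were not detectable at this depth. RNA reads were 2 and 5, 1 and 1, and 5 and 3, and were not tested.

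The copper chaperone and the copper ATPases moved in different ways. Atox1 encodes the chaperone that carries copper to the ATPases. Its footprint level was 429 and 508 RPKM in PBS, 579.9 and 581 at 6 h, and 919 and 1147 at 21 h. The 3 groups did not overlap, and the 21 h mean (1033 ± 161) was 2.21 times the PBS mean (468 ± 56.1). The change at 21 h was 1.10 (SE 0.13, limma adjusted p = 0.000324) and that at 6 h 0.30 (SE 0.13, adjusted p = 0.215). In RNA the groups overlapped, at 45.8 and 28.0 RPKM in PBS, 40.0 and 43.2 at 6 h, and 40.5 and 57.5 at 21 h. The RNA change at 21 h was 0.34 (SE 0.22, -0.15 to 0.83, limma adjusted p = 0.292). It was 0.70 without the first PBS library (limma adjusted p = 0.0496), 0.13 without the second 21 h library (adjusted p = 0.772) and -0.028 without the second PBS library (adjusted p = 0.94), on 43 to 65 RNA reads a library.

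Atp7a, the ATPase that most tissues use to export copper, had 5.24 and 6.61 footprint RPKM in PBS, 4.57 and 4.70 at 6 h, and 5.09 and 5.82 at 21 h. The 6 h libraries lay below PBS and the 21 h libraries overlapped with it. Its changes were -0.33 (SE 0.22) at 6 h and -0.14 (SE 0.22, -0.64 to 0.36) at 21 h, with limma adjusted p of 0.423 and 0.648. RNA was at 1.84 and 3.12, 2.07 and 2.14, and 2.03 and 2.95 RPKM, with all groups overlapping.

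Atp7b, the ATPase that sends copper into bile in the liver and is mutated in Wilson disease, had 11.0 and 10.1 footprint RPKM in PBS, 9.72 and 10.1 at 6 h, and 4.02 and 3.92 at 21 h. Both 21 h libraries lay below all 4 others, and the mean fell by 62.3% against PBS. The change at 21 h was -1.33 (SE 0.18, limma adjusted p = 0.000663), the largest fall of the 10 genes in footprints, and at 6 h it was -0.09 (SE 0.18, adjusted p = 0.809). In RNA, Atp7b was at 2.31 and 3.81 RPKM in PBS, 3.72 and 2.93 at 6 h, and 2.05 and 2.06 at 21 h. The 21 h values were the lowest, but the change of -0.51 (SE 0.29, -1.16 to 0.13) did not pass the test (limma adjusted p = 0.226), on 28 to 72 RNA reads a library. It was -0.82 without the first PBS library and -0.22 without the second (limma adjusted p = 0.152 and 0.724).

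Both metallothioneins fell in RNA at 21 h, and Mt1 fell in footprints as well. Mt1 was the gene of the 10 with the highest level in both assays. In RNA it was at 350.3 and 335 RPKM in PBS, 318 and 340.0 at 6 h, and 200.1 and 158 at 21 h, so that both 21 h libraries lay below all others and the mean fell by 47.7%. The RNA change was -1.03 (SE 0.12, limma adjusted p = 0.000491) at 21 h and 0.01 (SE 0.12, adjusted p = 0.981) at 6 h. In footprints Mt1 was at 1214 and 1302 RPKM in PBS, 1450.0 and 1403 at 6 h, and 969 and 1004 at 21 h. The 6 h libraries were all above PBS and the 21 h libraries all below, and the mean fell by 21.6% at 21 h. The footprint change was 0.17 (SE 0.08, limma adjusted p = 0.259) at 6 h and -0.39 (SE 0.08, adjusted p = 0.00493) at 21 h.

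Mt2, its neighbour and paralog, was at 161 and 132 RPKM in RNA in PBS, 149 and 124 at 6 h, and 112 and 87.5 at 21 h. Its 21 h libraries lay below the others, and the change was -0.64 (SE 0.16, limma adjusted p = 0.0157). This call was lost without the second 21 h library (-0.43, adjusted p = 0.0966) and without the first PBS library (-0.49, adjusted p = 0.12). In footprints Mt2 was at 690.2 and 574 RPKM in PBS, 801 and 782 at 6 h, and 583 and 532 at 21 h, above PBS at 6 h and overlapping with it at 21 h. The footprint change was 0.32 (SE 0.09, limma adjusted p = 0.110) at 6 h and -0.21 (SE 0.09, -0.43 to 0.00, adjusted p = 0.105) at 21 h. Without the second PBS library the 21 h fall was called (-0.33, limma adjusted p = 0.0314). How reads that match both metallothionein genes were counted is not given in the sources used here.

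Both ABC pumps fell in footprints at 21 h. Abcc1 encodes MRP1, an exporter of glutathione conjugates. It was at 35.8 and 35.6 footprint RPKM in PBS, 33.2 and 29.3 at 6 h, and 18.6 and 16.7 at 21 h. Each step was lower than the one before without overlap, and the mean fell by 50.6% from PBS to 21 h (change -1.04, SE 0.13, limma adjusted p = 0.000479). The 6 h change of -0.21 (SE 0.13) did not pass the test (limma adjusted p = 0.39). Abcc1 RNA was at 11.5 and 13.1 RPKM in PBS, 12.0 and 12.2 at 6 h, and 7.02 and 7.61 at 21 h, lowest at 21 h in both libraries. The RNA change was -0.79 (SE 0.16, limma adjusted p = 0.00719) at 21 h and 0.04 (SE 0.16) at 6 h. Without the second PBS library the RNA call at 21 h was lost (-0.72, limma adjusted p = 0.0593).

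Abcc5, or MRP5, which exports cyclic nucleotides, had 14.1 and 14.4 footprint RPKM in PBS, 10.1 and 11.3 at 6 h, and 9.70 and 10.04 at 21 h. All Cis libraries lay below PBS, and the mean fell by 25.0% at 6 h and fell by 30.7% at 21 h. The change was -0.41 (SE 0.16, limma adjusted p = 0.18) at 6 h and -0.54 (SE 0.16, adjusted p = 0.0242) at 21 h. This 21 h call was lost without any single one of the 4 PBS and 21 h libraries (-0.51 to -0.58, limma adjusted p = 0.0573 to 0.117). RNA was at 4.33 and 5.87, 3.64 and 4.70, and 4.36 and 5.35 RPKM, overlapping in all groups, with a change of -0.13 (SE 0.24, -0.67 to 0.40) at 21 h.

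Gstp1, the pi-class transferase that joins glutathione to many compounds, rose a little in footprints. Levels were 372 and 386 RPKM in PBS, 417 and 435 at 6 h, and 447 and 499 at 21 h, with no overlap between groups. The change at 21 h was 0.28 (SE 0.09, limma adjusted p = 0.0303). It was lost without the second 21 h library (0.21, adjusted p = 0.136), the first PBS library (0.23, adjusted p = 0.121) or either 6 h library (adjusted p = 0.0589 and 0.0592 by limma). RNA levels of 94.5 and 88.2, 107 and 87.0, and 80.5 and 102 RPKM overlapped, and the interval of the 21 h change ran from -0.38 to 0.19. Its near copies Gstp2 and Gstp3 had at most 5 reads in any library.

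The difference between the times was tested directly, as 21 h against 6 h, where the shared PBS libraries cancel. With no control labelled for each time, longer Cis and longer culture cannot be told apart in this comparison. In footprints, 5 of the 10 genes differed, where 30.7% of all genes were called, 15% as higher and 15.7% as lower at 21 h. Atox1 was higher at 21 h, by 0.80 (SE 0.13, limma adjusted p = 0.00244). Atp7b (-1.24), Abcc1 (-0.83), Mt1 (-0.55) and Mt2 (-0.53) were lower at 21 h. The change of Abcc5 between the times was -0.13 (SE 0.16, -0.49 to 0.23) and that of Gstp1 0.12 (SE 0.09, -0.07 to 0.32). In RNA, 3 of the 9 genes differed, where 15.7% of all genes were called and 8.21% were lower, namely Mt1 (-1.04), Abcc1 (-0.84) and Mt2 (-0.61). Over all genes, 711 were higher and 775 lower, and 1233 and 516 when RPKM were used as deposited, which moved the median of all genes from 0.01 to 0.15. The Mt2 difference in RNA was lost without the second 21 h library (-0.40, limma adjusted p = 0.147) or the first 6 h library (-0.48, adjusted p = 0.139).

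Translation efficiency (TE), footprints over RNA, was compared with limma by asking whether the Cis effect differed between the 2 assays, in 1 model of all 12 libraries. None of the 9 genes tested was called at either time, where 0% of 9295 genes were called at 6 h and 0.409% at 21 h. At an unadjusted p under 0.05, limma counted 0 of the 9 genes and 710 of all genes at 6 h, and 4 of the 9 and 1183 of all at 21 h. With voom, 0 of the 9 and 14 of all genes were called at 6 h, and 1 of the 9, Mt1, and 151 of all at 21 h.

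The 4 genes with an unadjusted p under 0.05 at 21 h were Mt1, Atox1, Atp7b and Gstp1. The TE values given here divide footprint by RNA RPKM, as deposited, of libraries with the same replicate number. Whether such libraries were paired is not labelled, and another pairing would give other values. For Mt1, TE was 3.47 and 3.89 in PBS, 4.56 and 4.13 at 6 h, and 4.84 and 6.35 at 21 h, both 21 h ratios above the others. The change was 0.64 (SE 0.16, 95% interval 0.30 to 0.98), with a limma adjusted p of 0.107, and without the first 21 h RNA library it was called (0.85, adjusted p = 0.0325). Atox1 had TE of 9.36 and 18.1 in PBS and 22.7 and 19.9 at 21 h (0.76, SE 0.29, limma adjusted p = 0.319). For Atp7b the values were 4.74 and 2.64 in PBS and 1.96 and 1.90 at 21 h (-0.82, SE 0.32, limma adjusted p = 0.326), and for Gstp1 they were 3.93 and 4.38, and 5.54 and 4.89 (0.37, SE 0.17, limma adjusted p = 0.385). The 4 genes were picked by their p-value in these same libraries, so the separation of their 21 h values from PBS is no further evidence. For Atox1 the 2 PBS ratios themselves were 9.36 and 18.1.

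**Figure D4:**
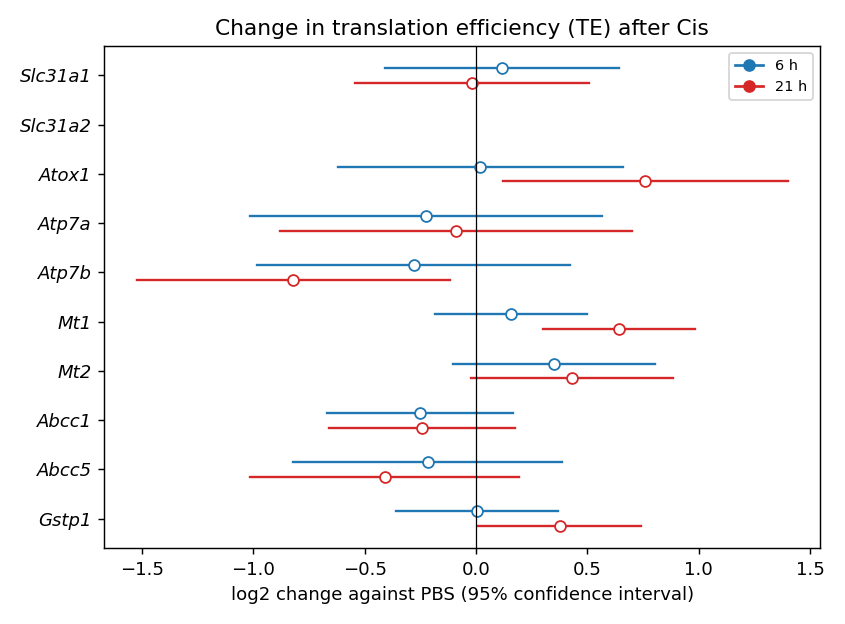
Change of TE against PBS on the log2 scale for the 9 genes tested, at 6 h (blue) and 21 h (red), with bars for the 95% confidence interval of the limma fit. No point is filled because none had an adjusted p under 0.05, and at 21 h the intervals of Mt1, Atox1, Atp7b and Gstp1 do not reach 0.

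A further 61 genes of platinum and metal handling were placed in 5 lists. In all, 57 were present, 47 were tested in footprints and 43 in RNA and TE. At 21 h, 10 of 47 rose and 8 fell in footprints (21.3% and 17.0%), near the 18.9% and 20.2% of all genes, and 8 of 43 rose and 6 fell in RNA (18.6% and 14.0%), where 11.6% of all genes rose and 12.2% fell. At 6 h, 1 of 47 fell in footprints, Cox17. No gene of the lists was called in TE.

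Of 12 genes listed for copper delivery, 4 rose and 2 fell in footprints at 21 h, with a list median of 0.41. The list also holds genes of endosomal recycling, among them Commd1 and Vps35l, the genes that fell. Cox17, which carries copper to the assembly of cytochrome c oxidase, had 12.2 and 10.2 RPKM in PBS, 4.51 and 4.70 at 6 h, and 31.6 and 45.4 at 21 h. It fell at 6 h (-1.21, SE 0.20, limma adjusted p = 0.0323) and rose at 21 h (1.68, SE 0.20, adjusted p = 0.000405), on 3 to 30 footprint reads a library. Cox19 (0.83), Coa6 (0.70) and Sco1 (0.60), which serve the same enzyme, also rose. Commd1, needed for the trafficking of copper ATPases, fell to 40.2 and 24.7 footprint RPKM at 21 h from 98.8 and 85.1 in PBS (-1.56, SE 0.20, limma adjusted p = 0.000573). Its RNA fell as well (-2.44, SE 0.26, limma adjusted p = 0.000322), and Vps35l, which acts with the COMMD proteins in endosomal recycling, fell in footprints (-0.93).

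Among other exporters, 2 of 7 fell and none rose in footprints. Abcc4, or MRP4, was at 20.4 and 21.4 RPKM in PBS, 11.9 and 14.8 at 6 h, and 5.32 and 4.18 at 21 h. Its 21 h change was -2.07 (SE 0.19, limma adjusted p = 0.000115), and its RNA fell by 1.53 on the log2 scale. Abcc3, or MRP3, fell by 0.87 in footprints. Tmem205, a membrane protein linked to platinum resistance, fell in RNA (-0.97, SE 0.22, limma adjusted p = 0.0109).

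Zinc and metallothionein control gave 2 rises and 1 fall among 10 genes in footprints. Slc30a1, the zinc exporter of the plasma membrane and a target of MTF1 like the metallothioneins, rose from 1.53 and 2.27 RPKM in PBS to 7.19 and 4.74 at 21 h (1.39, SE 0.35, limma adjusted p = 0.0133). The zinc importers Slc39a6 (0.52) and Slc39a10 (-1.37) moved in opposite ways. Mtf1 itself did not pass the test, at 0.52 (SE 0.27, limma adjusted p = 0.161) in footprints and 0.76 (SE 0.30, adjusted p = 0.101) in RNA.

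In glutathione metabolism, 4 of 12 rose and 3 fell. The risers were the enzymes of glutathione synthesis Gclm (0.62), Gss (0.54) and Gclc (0.47) and the transferase Gstm1 (0.52). Gclm went from 249.7 and 246 RPKM in PBS to 427 and 359 at 21 h. Those that fell were Mgst3 (-0.65), the glutathione reductase Gsr (-0.60) and the cystine importer Slc7a11 (-0.43). Of 6 other uptake genes, none passed in footprints, with a median of -0.01. In RNA the volume-regulated channel subunit Lrrc8a rose (0.52, SE 0.17, limma adjusted p = 0.0484), and Lrrc8d, the subunit described as passing Cis, fell (-0.99, SE 0.21, adjusted p = 0.00797).

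**Figure D5:**
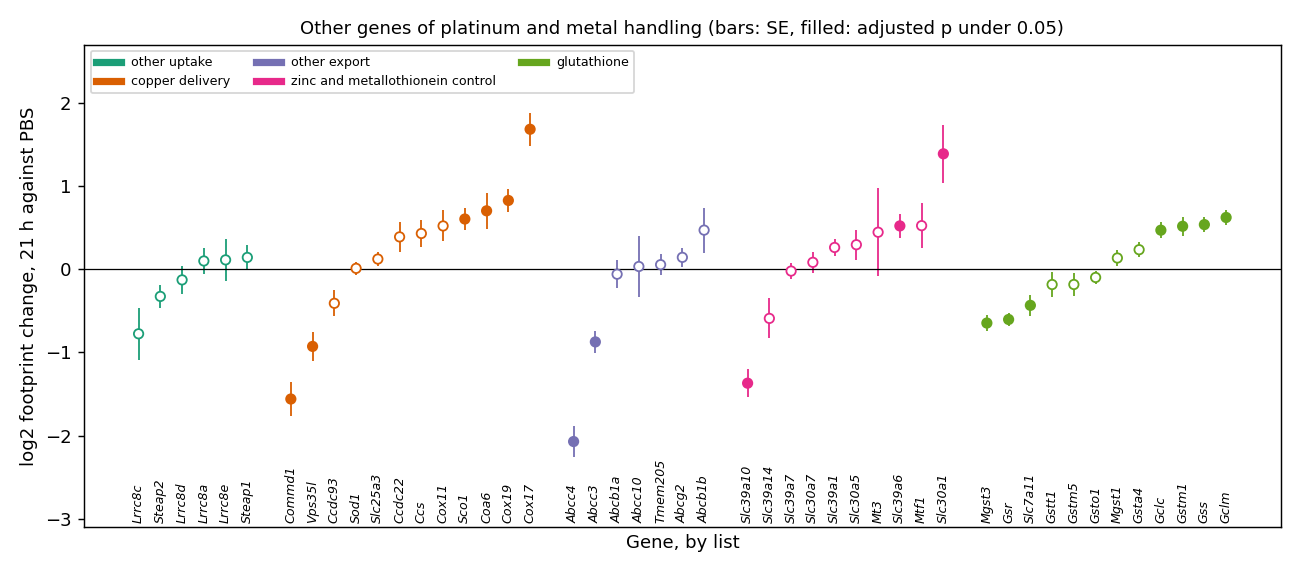
Footprint change at 21 h against PBS on the log2(RPKM + 0.5) scale for the 47 genes of the 5 lists that were tested, coloured by list, with bars for the SE of the limma fit and filled points for an adjusted p under 0.05. Filled points lie on both sides of 0, from Abcc4 at -2.07 to Cox17 at 1.68.

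Genes whose pattern over the 12 libraries was most like that of Slc31a1 and Mt1 were found by the Euclidean distance between log2 values centred on the PBS mean of each assay, over 8097 genes. For Slc31a1 they were Ttll4 (distance 0.35), Rwdd4a (0.36) and Esd (0.39). Ttll4 had mean footprints of 7.10 RPKM in PBS, 9.89 at 6 h and 8.08 at 21 h, highest at 6 h like Slc31a1. For Mt1 the nearest were Pfkl (0.51), Phpt1 (0.53) and Emp2 (0.57). Mean RNA of Pfkl was 32.4 RPKM in PBS, 26.2 at 6 h and 18.8 at 21 h. Phpt1 and Emp2 were also lowest at 21 h, at 12.9 and 5.51 RPKM in RNA. All these genes were picked for their likeness in these same libraries, so a shared pattern is no further evidence.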

How the data were processed

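KPC cells of 3 groups gave 2 ribosome profiling and 2 RNA-seq libraries each. Lysates made with cycloheximide were digested with RNase I and fragments of 25 to 35 nt were sequenced. RPKM values were deposited by the authors for each library, with footprints divided by coding length and RNA-seq by transcript length. The submitters' processing notes name cutadapt, STAR and GRCm39, and the counter and read filters are not given in the sources used here. RPKM times length gave whole multiples of a single read, within 0.01 reads for 100% of values, which gave reads and depth. Genes not listed for a library were set to 0. Replicates differed by more than sampling noise (chi-square over its degrees of freedom was 1.45 to 3.97). Libraries of an assay were brought to a common scale with median-of-ratios factors. Genes with a mean of at least 1 RPKM entered the limma 3.58.1 fit of log2(RPKM + 0.5), with all 3 groups together and eBayes with a trend (R 4.3.3). Two-sided p-values were adjusted over all genes by Benjamini-Hochberg and called under 0.05. Means ± SD are of RPKM as deposited. With 2 against 2 libraries the smallest exact permutation p is 0.333. The scripts were tested on simulated data. All 10 genes are named. From the 5 lists, genes with values are those past the threshold at 21 h, and Mtf1 was named in addition after its values were seen. The genes and lists were chosen with earlier results of these data known. Alternatives were another pseudocount (0.1, 1), filter (none, 5), scaling, model and each library left out, where a lone library was assumed to vary like the other groups.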

Additional observations from a re-analysis of the deposited data

Results flagged for a closer look

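Levels at 21 h of Cis differed from those at 6 h in 8 results, by a test of the difference itself (limma, 21 h against 6 h, with the shared PBS libraries cancelling). Neither time has a control labelled with that time, so longer Cis and longer culture cannot be told apart. In footprints the difference on the log2 scale was 0.80 for Atox1, the copper chaperone (adjusted p = 0.00244), -1.24 for the copper ATPase Atp7b (0.00158), -0.83 for the exporter Abcc1 (0.00232), -0.55 for Mt1 (0.00152) and -0.53 for Mt2 (0.00426). In RNA it was -1.04 for Mt1 (adjusted p = 0.00081), -0.84 for Abcc1 (0.0087) and -0.61 for Mt2 (0.0272). Atp7b and Atox1 were called in footprints and not in RNA, and whether the assays differed between 6 and 21 h was not tested. Groups of 2 libraries were too small to test a library as an outlier.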

How the results depend on the processing

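Under the 17 alternatives run for each, the footprint calls of Atox1, Atp7b, Mt1 and Abcc1 at 21 h against PBS were kept. The number of the 10 genes called in footprints at 6 h was 2 with voom, and in TE at 21 h 1 with voom and 0 to 1 when single libraries were left out. Without the trend, Mt2 in RNA and Gstp1 in footprints at 21 h were not called (limma adjusted p = 0.095 and 0.12), and without a filter Mt2 in RNA was not (0.0516). Mt2 RNA at 21 h against 6 h was also lost under both (0.136 and 0.0834), and Gstp1 with only the groups compared (0.06). Atp7b RNA at 21 h against 6 h was gained with voom (-0.81, 0.0277). Calls lost without a single library stand beside the results. The cause was not tested.

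Direction changed in results that were not called. With RPKM as deposited, the change was 0.14 for Slc31a1 RNA at 21 h against 6 h, 0.023 for Atp7a RNA at 21 h, and -0.058 for Mt1 and -0.021 for Abcc1 RNA at 6 h. Quantile normalization gave 0.044 for Slc31a2 and 0.023 for Atp7a footprints and 0.073 for Atp7a RNA at 21 h. With voom, Slc31a1 RNA at 21 h against 6 h was at 0.0044 and Atox1 TE at 6 h at -0.015. Leaving out single libraries gave these ranges. For Slc31a1 they were -0.34 to 0.060 (footprints, 21 h against 6 h), -0.12 to 0.11 (RNA, 21 h against 6 h), -0.081 to 0.31 (TE, 6 h) and -0.13 to 0.094 (TE, 21 h). Slc31a2 footprints ranged from -0.65 to 0.32 at 21 h and -0.27 to 0.70 against 6 h. Atox1 ranged from -0.089 to 0.64 (RNA, 6 h), -0.028 to 0.70 (RNA, 21 h), -0.16 to 0.27 (RNA, 21 h against 6 h) and -0.34 to 0.39 (TE, 6 h). Atp7a ranged from -0.31 to 0.033 (footprints, 21 h), -0.41 to 0.20 (RNA, 6 h), -0.35 to 0.25 (RNA, 21 h), -0.14 to 0.24 (RNA, 21 h against 6 h), -0.52 to 0.080 (TE, 6 h) and -0.39 to 0.22 (TE, 21 h). At 6 h, RNA ranged from -0.11 to 0.48 for Atp7b, -0.043 to 0.054 for Mt1, -0.20 to 0.12 for Mt2, -0.035 to 0.11 for Abcc1 and -0.0035 to 0.30 for Gstp1, and TE from -0.57 to 0.020 for Atp7b and -0.15 to 0.16 for Gstp1. RNA of Abcc5 ranged from -0.32 to 0.048 at 21 h and -0.10 to 0.22 against 6 h, and of Gstp1 from -0.22 to 0.041 at 21 h.

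Over all genes, footprint calls at 6 h were 212 and became 1276 with voom, 682 at a threshold of 0.1, 442 with only the groups compared, 344 with a minimum of 5, 17 with no filter, 37 with the replicate block, 0 without the trend and 0 to 398 when single libraries were left out (0 and 6 without a 6 h library, 17 and 30 without a PBS library). RNA calls at 21 h against 6 h, 1486, became 790 without the trend, 916 with no filter and 684 to 1197 without single libraries. Single libraries left out gave 1058 to 2309 RNA calls at 21 h (2245) and 1601 to 2985 footprint calls at 21 h against 6 h (3189). TE calls at 21 h, 38, became 151 with voom, 86 at a threshold of 0.1, 67 with a minimum of 5, 8 with no filter, 5 with the block, 0 without the trend or with TE per replicate number, and 2 to 43 without single libraries (2 and 3 without the second 21 h library of RNA or footprints, and 3 without the second PBS RNA library). Deviations of libraries with the same replicate number correlated at -0.05 to 0.07. This cannot show whether such libraries were paired, because noise of each library alone would also give low values. With the replicate block the 10 genes had 6 calls in footprints at 21 h, 3 in RNA and 0 in TE, and no call of the 10 changed. Depth limits Slc31a2 most, with 3 to 10 footprint reads and 1 to 5 RNA reads a library.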
